A study of Mus musculus with 399 samples.

Results

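The 7 genes described here are 4 adipokines, the secreted products leptin (Lep), adiponectin (Adipoq), resistin (Retn) and complement factor D, also called adipsin (Cfd), and 3 receptors, the leptin receptor (Lepr) and the adiponectin receptors Adipor1 and Adipor2. They were chosen by symbol, after the Ensembl identifiers of the count table had been matched to gene symbols, and are 7 of the 56980 identifiers in that table. The study measured messenger RNA by sequencing in mice of both sexes and 2 strains. One is TALLYHO/Jng, here TH, an inbred strain in which obesity and diabetes arise from many genes, and the other is C57BL/6J, here B6, a widely used inbred reference. At weaning, when 4 weeks old, each mouse was put on standard chow or on high-fat food. Tissue was taken after 1 week of feeding, at 5 weeks of age, or after 16 weeks of feeding, at 20 weeks of age. Gonadal fat, liver, soleus muscle and pancreas each gave 16 groups, 1 for every combination of strain, sex, diet and age. All groups are whole tissue from inbred animals that carry no transgene by the labels, and the composition of the high-fat diet is not given in the sources used here.

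Leptin is a hormone made mainly by fat cells in proportion to the fat they store, and it acts in the brain through the long form of its receptor to limit food intake. Adiponectin is an abundant fat cell hormone that circulates as multimers and acts through Adipor1, which is prominent in muscle, and Adipor2, which is prominent in liver, on AMP-activated kinase and lipid oxidation. Resistin is released by fat cells in mice and has been tied to insulin resistance in the liver. Factor D is the serine protease that cleaves factor B in the alternative complement pathway, and fat cells are its main source.

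Fat gave 96 libraries, liver 96, soleus 97 and pancreas 110, in groups of 5 to 10 mice, and every fat and liver group held 6. Total counts per library ran from 2949692 to 22172450 in fat, from 6599595 to 17542373 in liver, from 4169650 to 22050846 in soleus and from 1173484 to 11731391 in pancreas. In the pancreas a median of 64.6% of the counts fell on the 10 highest genes of the library, so the receptors there rest on few reads. Adipoq separated the tissues, since its lowest value in fat was 196 FPKM (fragments scaled by transcript length and library size) and its highest value in any other tissue was 55.6 FPKM, in a soleus library. Some fat libraries of males held transcripts of the neighbouring epididymis. The summed level of 13 epididymis markers reached 9448 FPKM in a 5-week B6 male on the high-fat diet, and its group medians in females were 0.602 to 3.83 FPKM. In total 6 fat libraries, all from males, 1 soleus library and 1 pancreas library stood more than 2 times as far from the mean of their group as was usual for the tissue. Values without them are given beside the Cfd and Retn results of males. In whole tissue, fewer cells of a type and less RNA per cell cannot be told apart. Gonadal fat lies by different organs in males and females, so sex and the site of the fat cannot be told apart either.

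All 4 adipokine genes have their transcription start on the plus strand in RefSeq's mouse annotation (build GRCm38.p6). The 250 bases before each start are shown because Retn, Cfd and Adipoq moved together from mouse to mouse while Lep and Cfd showed no relation past the test. Lep was related, more loosely, to Adipoq and Retn. Any link between these sequences and the relations was not tested. Capitals mark matches to any of 7 motifs, searched on both strands: the CCAAT box (CCAAT), the GC box (GGGCGG), the C/EBP palindrome (TTGCGCAA), the TATA box (TATAAA), the nuclear receptor core site (AGGTCA), the E-box (CACGTG) and DR1, a pair of core sites in a row with 1 base between them. The windows searched ran from 250 bases before to 50 bases after the start. Any match to DR1 is also a match to the core site.
Lep, chr6:29059971-29060220, plus strand: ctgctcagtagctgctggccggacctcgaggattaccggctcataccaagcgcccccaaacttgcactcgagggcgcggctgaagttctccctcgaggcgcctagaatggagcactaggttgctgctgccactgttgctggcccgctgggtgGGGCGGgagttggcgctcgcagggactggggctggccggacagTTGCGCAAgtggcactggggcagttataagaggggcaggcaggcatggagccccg
Adipoq, chr16:23146286-23146535, plus strand: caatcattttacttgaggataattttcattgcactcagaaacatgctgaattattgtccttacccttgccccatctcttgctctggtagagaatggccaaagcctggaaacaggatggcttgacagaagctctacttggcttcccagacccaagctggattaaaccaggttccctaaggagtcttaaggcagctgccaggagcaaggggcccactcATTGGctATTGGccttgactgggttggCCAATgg
Retn, chr8:3655520-3655769, plus strand: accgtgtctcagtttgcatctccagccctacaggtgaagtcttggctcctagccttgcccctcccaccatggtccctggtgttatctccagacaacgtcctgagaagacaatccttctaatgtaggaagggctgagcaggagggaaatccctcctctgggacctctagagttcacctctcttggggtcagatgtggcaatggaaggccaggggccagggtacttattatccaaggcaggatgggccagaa
Cfd, chr10:79890603-79890852, plus strand: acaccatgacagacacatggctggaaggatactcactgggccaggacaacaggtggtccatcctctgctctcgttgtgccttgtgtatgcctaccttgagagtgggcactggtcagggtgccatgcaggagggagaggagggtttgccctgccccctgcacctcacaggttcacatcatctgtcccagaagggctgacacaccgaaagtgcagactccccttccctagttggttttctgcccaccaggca

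The Lep window held TTGCGCAA, the palindrome bound by C/EBP family factors, starting 55 bases before the start site. Of 32851 RefSeq windows of the same length, 60 (0.183%) held this palindrome. Lep also held a GC box 98 bases before the start, a motif present in 35.7% of windows. The Adipoq window held 3 CCAAT boxes, starting 34, 27 and 7 bases before the start, the first and second of these on the minus strand and the third on the plus strand. A CCAAT box was present in 37.4% of all windows. None of the 7 motifs matched the Retn or the Cfd window. A match describes the letters of the window and is not a measured binding site.

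Within fat, Cfd was the adipokine with the highest level per transcript length and Lep the one with the lowest. The median over the 96 fat libraries was 1298 FPKM for Cfd, 730.1 for Adipoq, 205 for Retn and 144 for Lep. The receptors in fat were lower, with medians of 64.01 FPKM for Adipor2, 16.0 for Adipor1 and 0.575 for Lepr. All other levels in this section are read counts scaled to library size (CPM) and, within a tissue, adjusted for library composition. Between the highest and the lowest of the 16 fat group means, Cfd differed 27.8-fold, Lep 12.1-fold, Lepr 12.1-fold and Retn 8.09-fold. Adipoq differed 2.62-fold, Adipor2 1.86-fold and Adipor1 1.32-fold. The low end for Cfd and Retn is the group of TH males on the high-fat diet at 20 weeks, in which 1 mouse lay far above the others for both genes. Without that mouse the ranges were 52.6-fold for Cfd and 12.6-fold for Retn. The group of TH males on the high-fat diet at 20 weeks was at once the highest of the 16 for Lep and the lowest for Retn, Cfd and Lepr.

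**Figure D1:**
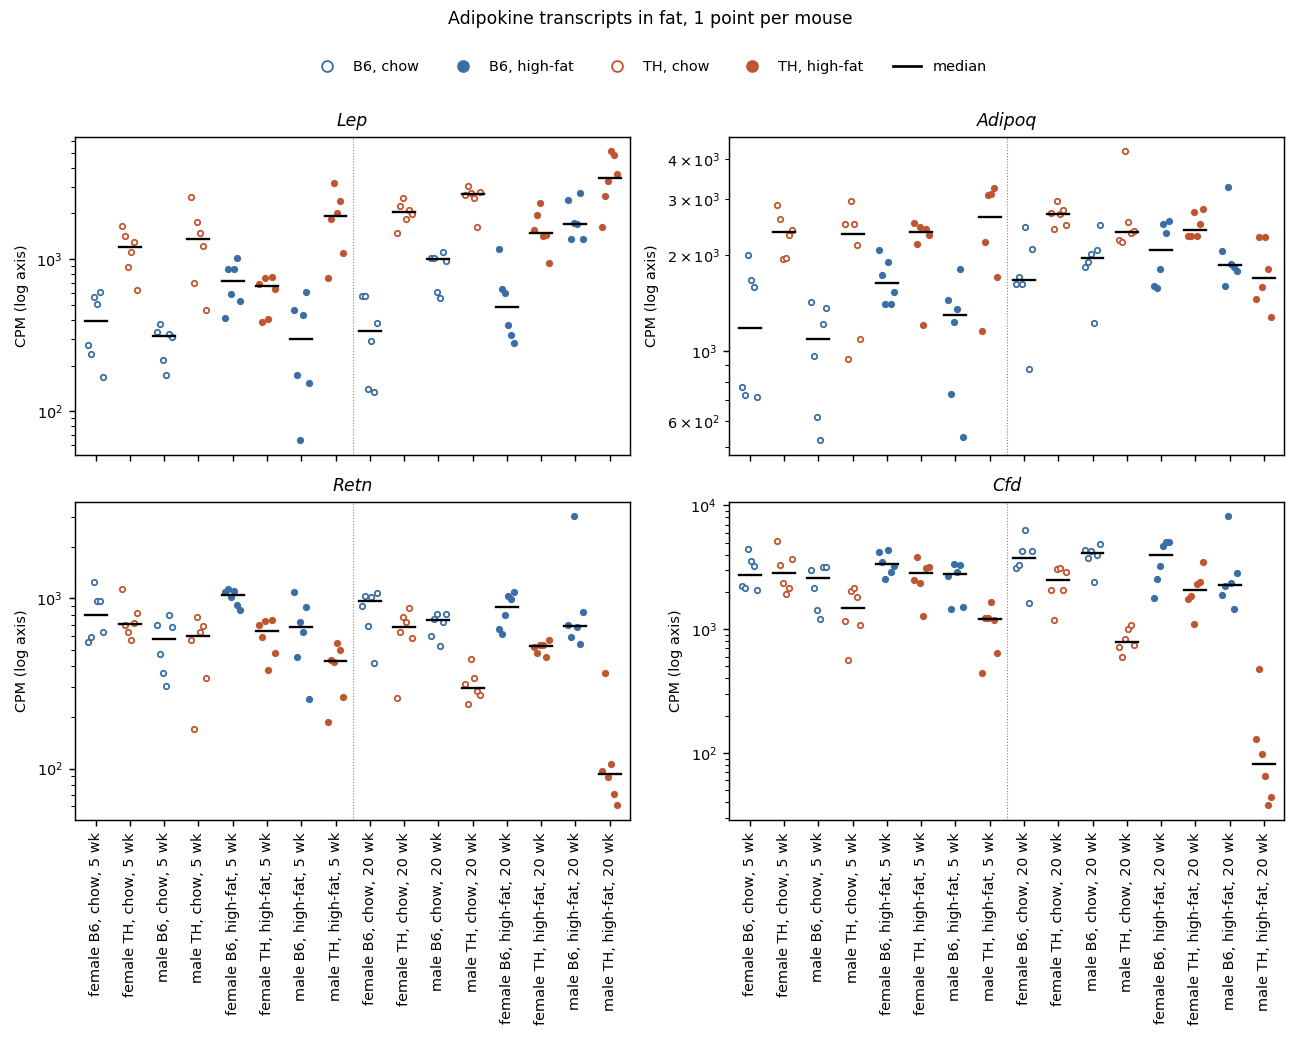
Normalised counts (CPM) of Lep, Adipoq, Retn and Cfd in gonadal fat, 1 panel per gene, on a log axis, with 1 point per mouse and a line at the median of each of the 16 groups of 6 mice. TH males on the high-fat diet at 20 weeks sit highest for Lep, with a median of 3439 CPM, and lowest for Cfd, with a median of 81.7 CPM.

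Leptin transcripts were higher in TH than in B6 fat in all 4 comparisons of the strains averaged over the sexes. In chow-fed females at 20 weeks the lowest, median and highest B6 mouse had 135, 336 and 576 CPM of Lep. The TH females had 1490.1, 2041 and 2507 CPM, so that the lowest TH female lay above the highest B6 female. Chow-fed males of that age had 558, 997 and 1118 CPM in B6 and 1617, 2687 and 3041 CPM in TH, again without overlap. The difference, TH minus B6 on the log2 scale ± SE, was 2.53 ± 0.38 (adjusted p = 3.29e-07) in females and 1.53 ± 0.37 (adjusted p = 0.00136) in males, by edgeR's quasi-likelihood test with Benjamini-Hochberg adjustment over all 19715 genes tested in fat. On the high-fat diet the groups overlapped. The lowest, median and highest females on that diet at 20 weeks had 281, 485 and 1168 CPM in B6 and 942, 1492 and 2330.4 CPM in TH. Males had 1349, 1709 and 2715 CPM in B6 and 1635, 3439 and 5106 CPM in TH. The strain difference on the high-fat diet was 1.51 ± 0.37 (adjusted p = 0.00268) in females and 0.90 ± 0.36 (adjusted p = 0.0502) in males, the latter just short of the threshold of 0.05. Leaving aside the fits without single mice, it passed that threshold in every other setting tried for it except the fit with no filter on low counts. It did not pass in the fit without the B6 male on the high-fat diet that was highest for Cfd. The change of the strain difference with the diet was -0.83 ± 0.36 (adjusted p = 0.387), which did not pass the test.

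The strain difference in Lep was already present at 5 weeks of age. The log2 difference was 1.90 ± 0.26 (adjusted p = 1.52e-08) on chow and 1.17 ± 0.26 (adjusted p = 0.000293) after 1 week of the high-fat diet, averaged over the sexes. Chow-fed TH males of that age had 464, 1349 and 2548 CPM as their lowest, median and highest value, against 175, 315 and 378 CPM in B6 males. The exception was in females after 1 week of the high-fat diet, where the values of TH, 384, 664 and 767 CPM, overlapped those of B6, 414, 724 and 1022 CPM. Averaged over the sexes, Lep rose with age in both strains. From 5 to 20 weeks the log2 change on chow was 0.85 ± 0.26 (adjusted p = 0.016) in TH and 0.72 ± 0.26 (adjusted p = 0.0477) in B6. On the high-fat diet it was 1.15 ± 0.26 (adjusted p = 0.000618) in TH and 1.12 ± 0.26 (adjusted p = 0.00111) in B6. The B6 change on chow lost its call in 4 of the other settings. Taken by sex, in a test added after the data had been seen, Lep rose in B6 males by 1.61 ± 0.37 (adjusted p = 0.00171) on chow and by 2.58 ± 0.38 (adjusted p = 6.78e-07) on the high-fat diet. In B6 females the values were -0.18 ± 0.36 (adjusted p = 0.941) and -0.34 ± 0.36 (adjusted p = 0.719), so neither was called. In TH mice on chow the change was 0.79 ± 0.36 (adjusted p = 0.308) in females and 0.91 ± 0.36 (adjusted p = 0.0818) in males. For TH mice on the high-fat diet it was 1.40 ± 0.37 (adjusted p = 0.00974) in females, the one call by sex in that strain, and 0.90 ± 0.36 (adjusted p = 0.0907) in males. Of all genes, age was called for 2.43% in females and 15.1% in males of B6 on chow, and for 3.41% and 28.6% on the high-fat diet. The shares in TH were 2.11% and 13.6% on chow and 5.97% and 13.8% on the high-fat diet. At 5 weeks the male strains also differed in epididymis markers, whose sums had medians of 443 FPKM in B6 and 1.43 FPKM in TH on chow. With scores for neighbouring tissues in the model, the 5-week strain difference of Lep on chow was 1.39 (adjusted p = 1.36e-06).

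The response of Lep to 16 weeks of the high-fat diet was a rise of 0.89 ± 0.26 (adjusted p = 0.0439) on the log2 scale in B6, against 0.06 ± 0.26 (adjusted p = 0.986) in TH. In B6 males the median went from 997 to 1709 CPM with no overlap between the diets, and in TH males from 2687 to 3439 CPM with wide overlap. TH females had a median of 2041 CPM on chow and 1492 CPM on the high-fat diet. By sex the log2 change in TH was 0.45 ± 0.36 (adjusted p = 0.526) in males and -0.34 ± 0.36 (adjusted p = 1) in females, and the test of the difference between the sexes gave 0.79 ± 0.51 (adjusted p = 0.742). The B6 change by sex was 1.09 ± 0.37 (adjusted p = 0.0721) in males and 0.69 ± 0.36 (adjusted p = 0.426) in females, each short of the threshold. The B6 rise was close to the threshold and lost its call in 4 other settings, among them the model with scores for neighbouring tissues, where it was 0.62 (adjusted p = 0.119). Males had more Lep than females in chow-fed B6 mice at 20 weeks, by 1.34 ± 0.37 (adjusted p = 0.00875). In TH the same difference was 0.34 ± 0.36 (adjusted p = 0.733), and the test of the change between strains gave -0.9999 ± 0.51 (adjusted p = 0.314).

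In the order of the 16 group means, Lep ran from 3502 ± 1316 CPM (SD, n = 6 in each group) in TH males on the high-fat diet at 20 weeks to 289 ± 76.5 CPM in chow-fed B6 males at 5 weeks. The chow-fed TH males (2555 ± 492 CPM) and TH females (2024 ± 351 CPM) at 20 weeks came next after the highest group. The 5-week TH males stood at 1880.0 ± 874 CPM on the high-fat diet and 1361 ± 756 CPM on chow, beside TH females at 1168 ± 374 CPM on chow. Below them, 5-week females on the high-fat diet had 714 ± 235 CPM in B6 and 607 ± 172 CPM in TH. The other 5-week B6 groups were among the 4 lowest, with 395 ± 189 CPM in chow-fed females and 315 ± 213.6 CPM in males on the high-fat diet. No 2 neighbours in this order were farther apart than their SDs reach.

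Adiponectin transcripts varied far less than leptin and were highest in chow-fed TH females at 20 weeks. These mice had 2414, 2702 and 2950.3 CPM as their lowest, median and highest value, and B6 females had 875, 1666 and 2446 CPM. The highest B6 female was thus level with the lowest TH females. At 5 weeks Adipoq was higher in TH by 0.95 ± 0.18 (adjusted p = 2.49e-05) on chow and by 0.71 ± 0.18 (adjusted p = 0.00176) on the high-fat diet. At 20 weeks the difference was 0.55 ± 0.18 (adjusted p = 0.0157) on chow, and it was 0.25 (adjusted p = 0.107) once scores for neighbouring tissues were in the model. Without the chow-fed TH male that was highest for Adipoq, at 4238 CPM, it was 0.46 (adjusted p = 0.0518). On the high-fat diet it was 0.03 ± 0.18 (adjusted p = 0.951), which gives no call. Over both sexes B6 mice gained Adipoq between 5 and 20 weeks, by 0.69 ± 0.18 (adjusted p = 0.00456) on chow and 0.55 ± 0.18 (adjusted p = 0.0207) on the high-fat diet. The TH changes of 0.29 and -0.13 were not called (adjusted p = 0.305 and 0.722). Taken by sex, in an edgeR test added after the data had been seen, the B6 gain was called in males. There it was 0.91 ± 0.25 (adjusted p = 0.00951) on chow and 0.81 ± 0.25 (adjusted p = 0.0124) on the high-fat diet. In B6 females the values were 0.47 ± 0.25 (adjusted p = 0.443) and 0.30 ± 0.25 (adjusted p = 0.615), so neither was called. The difference of the age effect between the strains on chow was -0.40 ± 0.25 (adjusted p = 0.612). With scores for neighbouring tissues the 5-week chow difference was 0.47 (adjusted p = 0.00351). By group mean Adipoq ran from 2671 ± 194 CPM (SD, n = 6) in those TH females to 1019.6 ± 383 CPM in chow-fed B6 males at 5 weeks, and no neighbours in the order were farther apart than their SDs reach. Neither strain showed a called effect of diet or sex on Adipoq.

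Complement factor D showed the widest change of the 7 genes, with its lowest values in TH males on the high-fat diet. At 20 weeks on that diet the lowest, median and highest TH male had 37.96, 81.7 and 477 CPM of Cfd, against 1447, 2290.3 and 8183 CPM in B6 males. On chow the values were 595, 790.1 and 1076 CPM in TH males and 2413, 4135 and 4886 CPM in B6 males. On either diet every TH male lay below every B6 male. The log2 difference was -4.47 ± 0.43 (adjusted p = 9.95e-14) on the high-fat diet and -2.25 ± 0.39 (adjusted p = 7.18e-06) on chow. Females overlapped on both diets. TH females had 1099, 2087.7 and 3499 CPM and B6 females 1799.7, 3944 and 5106 CPM on the high-fat diet. Their log2 differences of -0.79 on the high-fat diet and -0.66 on chow were not called (adjusted p = 0.229 and 0.215).

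Within TH males the high-fat diet lowered Cfd, with a log2 change of -2.54 ± 0.40 (adjusted p = 9.08e-05), and the highest male on the high-fat diet, at 477 CPM, lay below the lowest on chow, at 595 CPM. A fit on these groups alone left the change short of the threshold, at -2.54 (adjusted p = 0.074). In TH females the change was -0.16 ± 0.38 (adjusted p = 1). The test of the difference between the sexes gave -2.38 ± 0.54 (adjusted p = 0.192) over all genes, -2.36 (adjusted p = 0.0402) without the libraries that stood apart and -2.37 (adjusted p = 0.00398) with DESeq2. Chow-fed TH males at 20 weeks also had less Cfd than TH females, with a log2 difference of -1.54 ± 0.38 (adjusted p = 0.00518). In B6 that difference was 0.05 ± 0.38 (adjusted p = 0.956). The strain by sex test on chow gave -1.59 ± 0.53 (adjusted p = 0.115) and passed without the libraries that stood apart, at -1.70 (adjusted p = 0.0286).

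Cfd fell with age in TH males on the high-fat diet. At 5 weeks the strain difference was -0.31 ± 0.27 (adjusted p = 0.45) on chow and -0.81 ± 0.27 (adjusted p = 0.0193) on the high-fat diet, averaged over the sexes, and chow-fed TH males then had 564, 1497 and 2166 CPM. From 5 to 20 weeks on the high-fat diet the log2 change of Cfd over both sexes was -1.62 ± 0.27 (adjusted p = 4.08e-06) in TH. The B6 change was 0.21 ± 0.27 (adjusted p = 0.632). Taken by sex, in an edgeR test added after the data had been seen, the TH change was -2.91 ± 0.40 (adjusted p = 4.12e-08) in males. In TH females it was -0.33 ± 0.38 (adjusted p = 0.739), which was not called. The highest B6 male on the high-fat diet, at 8183 CPM, was one of the libraries that stood apart. Without it the 5 other B6 males averaged 2156 ± 525 CPM (SD). The male strain difference without the libraries that stood apart was -3.89 (adjusted p = 1.57e-11). The highest TH male on that diet, at 477 CPM, also lay far from its group, and the 5 others averaged 75.1 ± 38.5 CPM (SD). Leaving out that TH male, a setting added after the data had been seen, gave a male strain difference of -5.36 (adjusted p = 2.88e-17) and a diet change in TH males of -3.45 (adjusted p = 3.26e-09). In that setting the difference of the diet change between the sexes was called in TH, at -3.29 (adjusted p = 3.57e-05), as was the strain by diet test of Cfd, at -1.62 (adjusted p = 0.0124), against -1.18 ± 0.38 (adjusted p = 0.195) with all mice.

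By group mean, the 4 highest groups for Cfd were all B6, from 3945 ± 841 CPM (SD, n = 6) in chow-fed males at 20 weeks to 3470.5 ± 719 CPM in females on the high-fat diet at 5 weeks. B6 males on the high-fat diet at 20 weeks came next, at 3161 ± 2505 CPM, and lay below the TH females on chow at 5 weeks without the library that stood apart. The 4 lowest groups were the TH males, at 1471 ± 632 CPM on chow and 1066 ± 445 CPM on the high-fat diet at 5 weeks, and 828 ± 180.3 CPM and 142 ± 168 CPM at 20 weeks. TH females held the middle, from 2155 ± 806 CPM on the high-fat diet at 20 weeks to 3103 ± 1234 CPM on chow at 5 weeks. The last step in the order, between the TH males on chow and on the high-fat diet at 20 weeks, was the one gap between neighbours that their SDs did not bridge.

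Resistin transcripts were also lowest in TH males on the high-fat diet, over a narrower range than Cfd. TH males on the high-fat diet at 20 weeks had 60.9, 93.2 and 367 CPM of Retn, and B6 males had 541, 691 and 3048 CPM, with no overlap. On chow the males had 239.3, 299.5 and 439 CPM in TH and 525.5, 745 and 814 CPM in B6, again without overlap. The log2 difference between the strains was -3.01 ± 0.35 (adjusted p = 1.26e-10) on the high-fat diet and -1.17 ± 0.33 (adjusted p = 0.00752) on chow in males. On the high-fat diet it was -2.26 (adjusted p = 4.33e-08) without the libraries that stood apart, of which the B6 male at 3048 CPM is one, and -3.62 (adjusted p = 1.54e-13) without the TH male at 367 CPM. In females it was -0.76 and -0.42 (adjusted p = 0.166 and 0.399). Every TH female on the high-fat diet, from 454 to 567 CPM, still lay below every B6 female, from 621 to 1099 CPM. The high-fat diet lowered Retn in TH males, with a log2 change of -1.25 ± 0.33 (adjusted p = 0.0311), a call lost with no filter on low counts and with a fit on those groups alone. It was -1.87 (adjusted p = 0.000116) without the TH male at 367 CPM. Without either of 2 chow-fed TH males, the one highest for Adipoq and the one lowest for Lep, it was -1.13 (adjusted p = 0.0695) and -1.28 (adjusted p = 0.0621). Over both sexes the diet change of Retn in TH was -0.79 ± 0.23 (adjusted p = 0.14) with all mice and -1.10 (adjusted p = 0.00238) without the TH male at 367 CPM, and the strain by diet test gave -1.09 ± 0.33 (adjusted p = 0.152) and -1.39 (adjusted p = 0.0164). Retn was lower in TH males than in TH females on chow, with a log2 difference of -1.03 ± 0.33 (adjusted p = 0.0414), and -1.01 (adjusted p = 0.0763) without the male lowest for Lep. Between 5 and 20 weeks on the high-fat diet Retn fell in TH over both sexes, with a log2 change of -0.91 ± 0.23 (adjusted p = 0.00308). Taken by sex, in an edgeR test added after the data had been seen, it was -1.58 ± 0.33 (adjusted p = 0.000301) in TH males. In TH females it was -0.24 ± 0.33 (adjusted p = 0.794), which was not called. By group mean Retn ran from 1066 ± 976 CPM (SD, n = 6) in B6 males on the high-fat diet at 20 weeks, 670.2 ± 114 CPM without the library that stood apart, to 132 ± 116 CPM in TH males on that diet. At 5 weeks the strain difference was -0.09 ± 0.23 (adjusted p = 0.836) on chow and -0.77 ± 0.23 (adjusted p = 0.00947) on the high-fat diet.

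Markers of other cells moved in the same male groups. The summed level of 16 mature adipocyte markers in TH males on the high-fat diet was 2289.8, 2716 and 4708 FPKM as lowest, median and highest, against 4152, 4857 and 5514 FPKM in B6 males. Of these markers, 9 of 16 were called lower and 0 higher in TH males. The 12 macrophage markers summed to 351, 891 and 1447 FPKM in TH and 216.8, 312 and 571 FPKM in B6, with 8 of 12 called higher. Epididymis markers summed to 0.920, 10.1 and 5723 FPKM in TH and 0.485, 1.53 and 5.20 FPKM in B6, with 13 of 13 called higher. Of all genes in that comparison 15.5% were called higher and 15.6% lower. Set against the mean log2 level of the adipocyte markers in the same library, Cfd still differed between the male strains by -3.92 (adjusted p = 0.00577) on the high-fat diet and Retn by -2.10 (adjusted p = 0.00433), by exact permutation tests adjusted over 8 comparisons per gene. Without the libraries that stood apart these were -3.78 (adjusted p = 0.0127) and -1.81 (adjusted p = 0.0139) by the same exact test. Against the adipocyte markers, both genes were also called lower in TH females at 20 weeks, where edgeR gave no call. By the exact test, Cfd in females differed by -0.77 (adjusted p = 0.013) on the high-fat diet and -0.996 (adjusted p = 0.0173) on chow. Retn in females differed by -0.72 (adjusted p = 0.00433) and -0.81 (adjusted p = 0.00433). On that scale the difference between the diets in TH males was -2.27 (adjusted p = 0.00577) for Cfd, -0.69 (adjusted p = 0.0491) for Retn and 1.23 (adjusted p = 0.0139) for Lep. For Lep it was also called in B6 males, at 1.14 (adjusted p = 0.00577). The Retn value for the diet in TH males lost its call without the libraries that stood apart, at -0.74 (adjusted p = 0.0635). It also lost it without either of the 2 chow-fed TH males named above, at -0.63 (adjusted p = 0.0924) and -0.68 (adjusted p = 0.0808). This scale was added after the data had been seen, and the part of the other cell types in these results was not tested.

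Counted per comparison in fat, strain gave the most calls among the members. On chow at 20 weeks 5 of the 7 members were called between the strains, 2 higher and 3 lower in TH, where 25.6% of all tested genes were called, 12.3% higher and 13.4% lower. The counts were 3 of 7 on the high-fat diet at 20 weeks (26.1% of all genes), 4 of 7 on chow at 5 weeks (21.3%) and 4 of 7 on the high-fat diet at 5 weeks (23%). Within the sexes at 20 weeks the counts were 2 in females and 3 in males on chow (18.6% and 15.5% of all genes). The same counts on the high-fat diet were 1 and 2 (8.35% and 31.1%). The diet gave fewer calls: Lep alone in B6 (2.34% of all genes) and Cfd alone in TH (0.152%) at 20 weeks, Lepr alone in B6 (2.88%) and no member in TH (0.0507%) at 5 weeks. In TH males alone 2 members were called for diet (2.56% of all genes), and none in TH females (0.00507%), B6 males (3.67%) or B6 females (0.467%). Age gave 2 and 2 calls in B6 on chow and on the high-fat diet (14% and 19.5% of all genes), and 1 and 3 in TH (13.8% and 15.8%). Sex gave 2 calls in B6 (12.9%) and 2 in TH (6.4%). Of 35 tests of a difference between effects (strain by diet, by sex and by age, and diet by sex in each strain), edgeR called none. DESeq2 called 1, and 12 had an unadjusted p under 0.05. Of all tested genes edgeR called 0.152% for strain by diet, 1.48% for strain by sex, 0.959% for strain by age, and 0.847% in B6 and 0.00507% in TH for diet by sex. Comparisons that share a group of mice are not independent of each other.

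**Figure D2:**
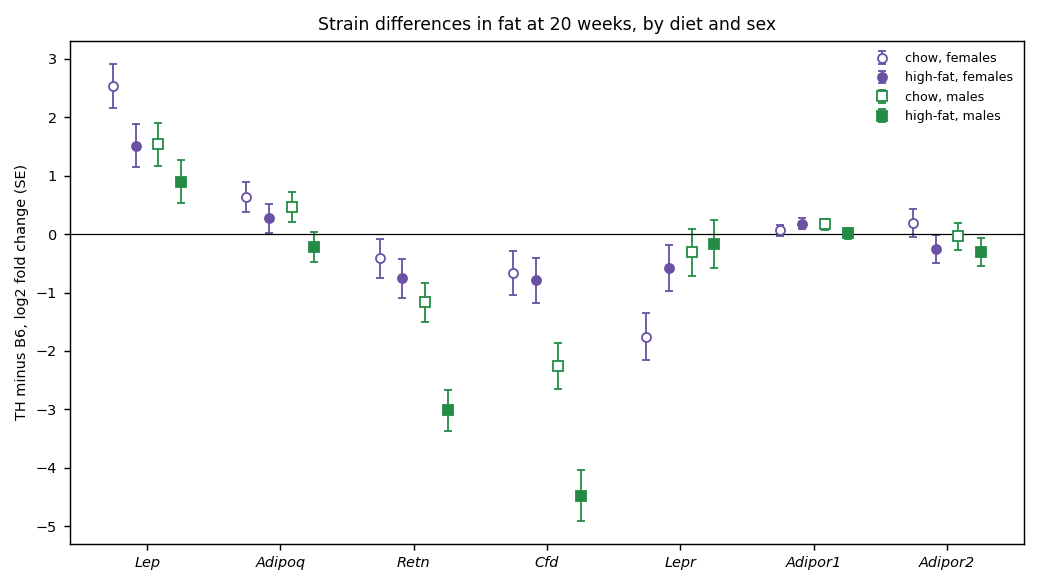
Difference between TH and B6 gonadal fat at 20 weeks in log2 fold change (TH minus B6) with its standard error, for the 7 genes, by diet and sex, 6 mice per group. Lep lies above 0 in all 4 sets, from 0.90 to 2.53, and Cfd lies farthest below 0 in males on the high-fat diet, at -4.47.

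The ratio of Lep to Adipoq counts within a library does not depend on the library size, and it was higher in TH in most comparisons. On the log2 scale the ratio was -3.53, -2.57 and -1.495 as lowest, median and highest in chow-fed B6 females at 20 weeks and -0.86, -0.36 and -0.11 in TH females, without overlap. In chow-fed males it was -1.74, -1.02 and -0.84 in B6 and -0.63, 0.10 and 0.47 in TH, also without overlap. TH males on the high-fat diet at 20 weeks were the only group in which all 6 mice had more Lep than Adipoq counts, with a log2 ratio from 0.17 to 1.51. These counts are not scaled by transcript length, so a log2 ratio of 0 does not mark equal levels per length. By exact 2-sided permutation tests of 6 against 6 mice, adjusted over 16 comparisons, the ratio was higher in TH in 7 of 8 strain comparisons. At 20 weeks the difference was 2.06 (adjusted p = 0.00866) in females and 1.10 (adjusted p = 0.00866) in males on chow. Under high-fat feeding it was 1.34 (adjusted p = 0.0485) and 1.06 (adjusted p = 0.0346). At 5 weeks it was 0.62 (adjusted p = 0.0346) in females and 1.11 (adjusted p = 0.00866) in males on chow, and 1.74 (adjusted p = 0.00866) in males on the high-fat diet. The exception was females after 1 week of the high-fat diet, at -0.58 (adjusted p = 0.107). The diet raised the ratio in males at 20 weeks, by 0.99 (adjusted p = 0.0277) in B6 and 0.95 (adjusted p = 0.0423) in TH. It lowered the ratio in TH females at 5 weeks, at -0.80 (adjusted p = 0.0346). The other 5 diet comparisons did not pass.

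**Figure D3:**
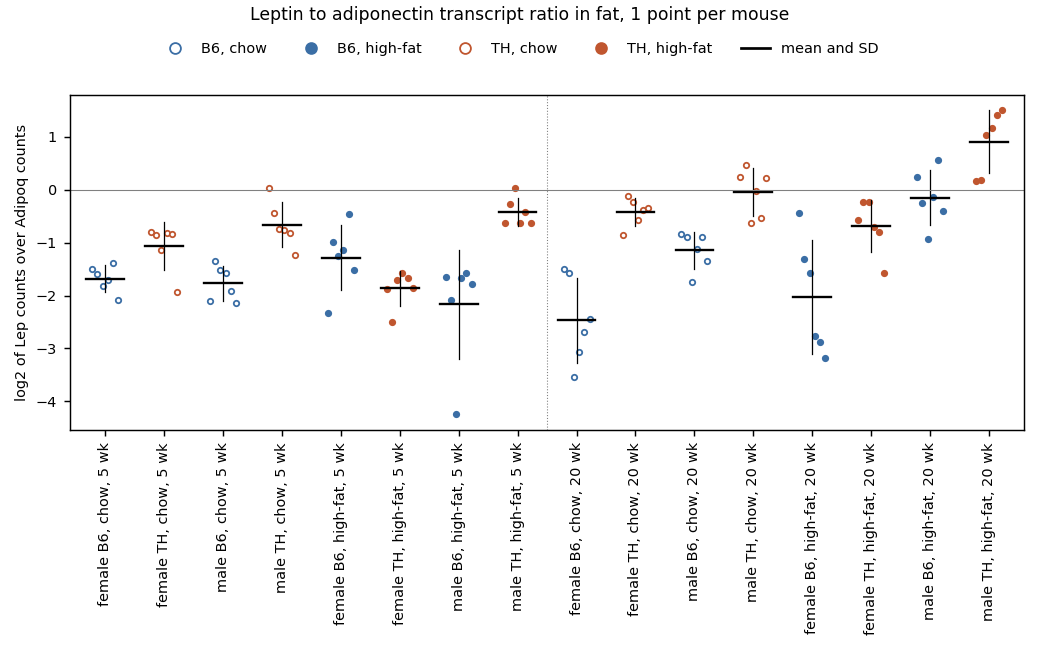
Log2 ratio of Lep to Adipoq counts in each gonadal fat library, with 1 point per mouse and the mean and SD of each of the 16 groups of 6. TH males on the high-fat diet at 20 weeks have the highest mean, 0.91 ± 0.59, and chow-fed B6 females at 20 weeks the lowest, -2.47 ± 0.81.

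Among mice of the same group, Adipoq, Retn and Cfd rose and fell together, and Lep followed Adipoq more loosely, with no called relation to Cfd. Each value was taken as its deviation from the mean of its group, over the 96 fat libraries. Adipoq and Retn gave r = 0.80 and rho = 0.85, Retn and Cfd gave r = 0.81 and rho = 0.76, and Adipoq and Cfd gave r = 0.71 and rho = 0.73 (Pearson's and Spearman's). For these 3 pairs the permutation p was 1e-05 for both measures, the smallest that 100000 permutations can give, and 2.33e-05 after adjustment over 7 relations. Lep and Adipoq gave r = 0.52 and rho = 0.49 (adjusted permutation p = 5.25e-05). Lep and Retn gave r = 0.35 and rho = 0.38 (adjusted permutation p = 0.00483 and 0.00116). Lep and Cfd gave r = 0.06 and rho = 0.05 (adjusted permutation p = 0.591 and 0.8). Without the 2 libraries farthest from the median of the first gene, r was 0.77 for Adipoq and Retn, 0.75 for Retn and Cfd, 0.69 for Adipoq and Cfd, 0.55 for Lep and Adipoq, 0.37 for Lep and Retn and 0.08 for Lep and Cfd. The 4 values of a library share its depth and its mix of cells. In 79 animals with both a fat and a liver library, Lep in fat and Lepr in liver gave r = -0.10 and rho = -0.01 (adjusted permutation p = 0.591 and 0.911), and r = 0.00260 without the 2 farthest animals.

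Over the 16 fat group means of log2 CPM, the genes with the pattern most like Lep among 12385 expressed genes were Ap2a2, a subunit of the clathrin adaptor complex (r = 0.97), Lpgat1, a lysophospholipid acyltransferase (r = 0.96), and Sel1l, a part of the machinery that degrades misfolded proteins in the endoplasmic reticulum (r = 0.95). Nearest to Adipoq were Sh3bgrl (r = 0.96), Cd164 (r = 0.95) and Naaa (r = 0.95). Nearest to Retn were Rab34 (r = 0.95), Echdc3 (r = 0.94) and Echs1 (r = 0.94), and nearest to Cfd were Mccc2 (r = 0.95), Echdc3 (r = 0.94) and Rab34 (r = 0.93). Echs1 is the enoyl-CoA hydratase of mitochondrial fatty acid oxidation and Mccc2 a subunit of the carboxylase of leucine breakdown. Retn and Cfd shared Rab34 and Echdc3 among their 3 nearest genes. These values describe 16 means that share libraries, and carry no test.

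Of the receptors in fat, Lepr had the widest range of group means, and its 3 highest group means were in B6 females. Chow-fed B6 females had 9.49, 28.04 and 33.7 CPM as lowest, median and highest value at 20 weeks, and TH females had 6.21, 7.30 and 9.06 CPM, with the lowest B6 female just above the highest TH female. Males of both strains lay lower, with 4.88, 7.31 and 10.7 CPM in B6 and 2.00, 5.63 and 11.3 CPM in TH. The log2 difference TH minus B6 was -1.76 ± 0.40 (adjusted p = 0.000798) in females and -0.31 ± 0.40 (adjusted p = 0.684) in males. The male minus female difference was -1.79 ± 0.40 (adjusted p = 0.00103) in B6 and -0.34 ± 0.40 (adjusted p = 0.767) in TH. At 5 weeks on chow B6 females had 13.0, 40.1 and 112 CPM, the widest spread of any group, and TH females 4.40, 7.77 and 19.9 CPM. The strain difference on chow at 5 weeks, over both sexes, was -1.65 ± 0.28 (adjusted p = 3.63e-06). On the high-fat diet the females of the strains overlapped. Their medians were 21.8 CPM in B6 and 11.5 CPM in TH at 20 weeks, and 12.5 and 9.99 CPM at 5 weeks. Over both sexes Lepr was not called between the strains on that diet at either age. In B6, 1 week of the high-fat diet lowered Lepr, with a log2 change of -1.32 ± 0.28 (adjusted p = 0.00302). Markers of ovary and uterus summed to a median of 6.99 FPKM in the chow-fed B6 females at 5 weeks and 2.03 FPKM in TH females, and to 3.94 and 2.42 FPKM at 20 weeks. With scores for neighbouring tissues in the model, the female strain difference at 20 weeks was -0.81 (adjusted p = 0.0577) and the B6 diet effect at 5 weeks -0.47 (adjusted p = 0.757). The counts do not separate the long, signalling form of Lepr from its short forms.

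Adipor1 and Adipor2, which couple adiponectin to lipid oxidation, were nearly level across fat. The 16 group means of Adipor1 ran from 136 to 180.0 CPM, and those of Adipor2 from 506 to 939 CPM. The single call in fat for either gene in the comparisons run was Adipor1 on chow at 5 weeks, higher in TH by 0.18 ± 0.07 (adjusted p = 0.0447), which 4 other settings took away. Adipor2 in TH minus B6 fat was 0.07 ± 0.16 (adjusted p = 0.796) on chow and -0.28 ± 0.17 (adjusted p = 0.213) on the high-fat diet at 20 weeks.

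In liver the leptin receptor responded to the high-fat diet in both strains and, at 20 weeks, was higher in females. Chow-fed TH females at 20 weeks had 3.84, 4.57 and 4.65 CPM as lowest, median and highest value, and TH females on the high-fat diet had 17.5, 30.7 and 75.7 CPM. B6 females had 8.94, 11.7 and 20.5 CPM on chow and 22.3, 32.3 and 43.2 CPM on the high-fat diet, and in both strains the diets did not overlap. Males of that age were lower in both strains and on both diets. B6 males had 0.802, 2.41 and 6.02 CPM on chow and 3.76, 5.23 and 12.1 CPM on the high-fat diet, and TH males 0.422, 1.93 and 2.40 CPM and 1.53, 4.12 and 7.91 CPM, with overlap in both strains. Averaged over the sexes, the log2 change with the diet was 2.14 ± 0.29 (adjusted p = 6.31e-09) in TH and 1.23 ± 0.26 (adjusted p = 0.000254) in B6 at 20 weeks. The test of the difference between these changes gave 0.91 ± 0.40 (adjusted p = 0.193). After 1 week of feeding Lepr had risen in B6, by 1.55 ± 0.23 (adjusted p = 1.56e-07), and the TH value was 0.48 ± 0.31 (adjusted p = 0.403). In the B6 males on the high-fat diet then, 1 mouse at 50.8 CPM lay far above the next, at 17.3 CPM. No liver fit without it was run. Male minus female on chow at 20 weeks was -2.30 ± 0.39 (adjusted p = 1.93e-06) in B6 and -1.36 ± 0.46 (adjusted p = 0.0224) in TH.

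**Figure D4:**
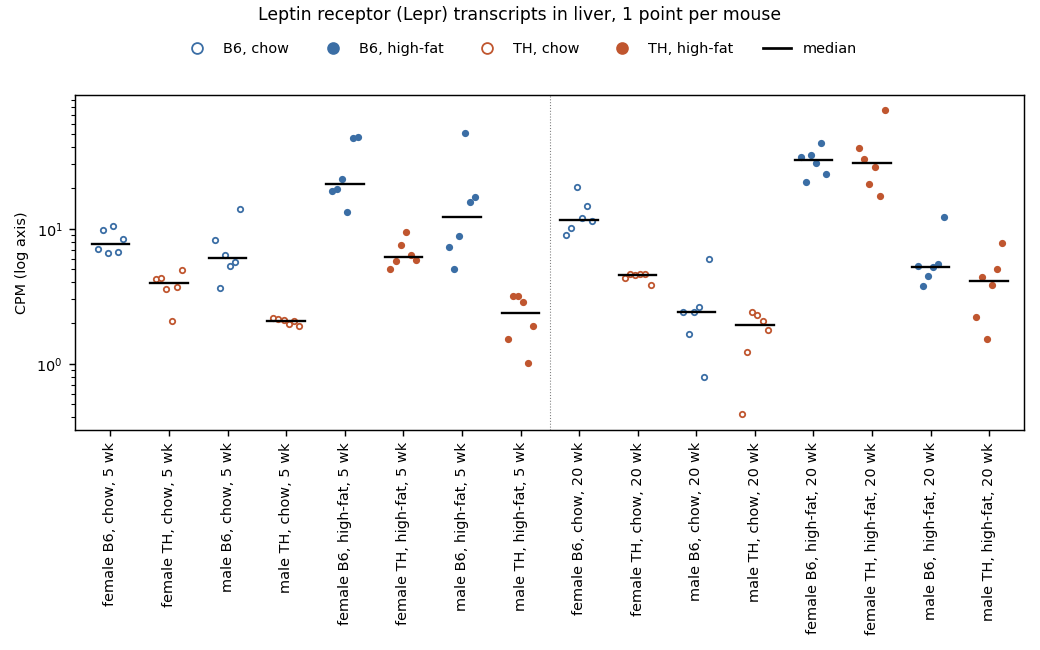
Normalised counts (CPM) of Lepr in liver on a log axis, with 1 point per mouse and a line at the median of each of the 16 groups of 6 mice. At 20 weeks the median of TH females is 4.57 CPM on chow and 30.7 CPM on the high-fat diet, and that of TH males 1.93 and 4.12 CPM.

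TH livers had less Lepr than B6 livers in 3 of the 4 strain comparisons. The log2 difference was -1.08 ± 0.31 (adjusted p = 0.00301) on chow at 20 weeks, -1.44 ± 0.28 (adjusted p = 1.07e-05) on chow at 5 weeks and -2.51 ± 0.26 (adjusted p = 6.87e-14) after 1 week of the high-fat diet. After 16 weeks of that diet it was -0.17 ± 0.25 (adjusted p = 0.617). Adipor2, the main adiponectin receptor of hepatocytes, was lower in TH liver in all 4 comparisons. In males on chow at 20 weeks it ran at 229, 379 and 488 CPM in TH and 539, 682 and 714 CPM in B6, with no overlap. The log2 differences of Adipor2 were -0.62 ± 0.09 (adjusted p = 2.37e-08) on chow and -0.41 ± 0.09 (adjusted p = 0.000143) on the high-fat diet at 20 weeks, and -0.31 ± 0.09 (adjusted p = 0.00378) and -0.41 ± 0.09 (adjusted p = 0.000148) at 5 weeks. The high-fat diet raised Adipor2 at 20 weeks by 0.52 ± 0.09 (adjusted p = 6.21e-06) in TH and 0.31 ± 0.09 (adjusted p = 0.00864) in B6. Adipor1 moved less and partly the other way, with -0.13 ± 0.04 (adjusted p = 0.00754) for the diet in TH at 20 weeks and -0.21 ± 0.04 (adjusted p = 1.89e-05) in B6 at 5 weeks.

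Over 14 comparisons of 3 receptors in liver, 20 of 42 tests were called. For the diet at 20 weeks the counts were 2 of 3 in B6 (23.4% of all genes) and 3 of 3 in TH (26.1%), and at 5 weeks 2 in B6 (19.9%) and 0 in TH (9.66%). For strain they were 2 on chow (42.2%) and 1 on the high-fat diet (39.6%) at 20 weeks, and 3 and 3 at 5 weeks (38.8% and 43.4%). A called strain difference was therefore common among all genes of this tissue. Age on chow gave 1 call in B6, Adipor1 (15.6% of all genes), and 0 in TH (9.16%). Sex gave 2 in B6 (38.4%) and 1 in TH (22.1%). By edgeR none of the 6 tests of a difference between effects was called in liver, DESeq2 also called none, and 1 had an unadjusted p under 0.05. The background for these tests was 3.89% for strain by diet and 4.88% for strain by sex. The counts in this tissue come from a median of 67 reads of Lepr and 5614 of Adipor2 per library.

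In soleus, a slow-twitch postural muscle, the adiponectin receptors rose with age. Chow-fed B6 females had 129, 159 and 173 CPM of Adipor2 as lowest, median and highest value at 5 weeks and 203, 212 and 225 CPM at 20 weeks, with no overlap. TH males had 108, 129 and 154 CPM at 5 weeks (5 mice) and 183, 203 and 231 CPM at 20 weeks. Over both sexes Adipor2 rose by 0.52 ± 0.08 (adjusted p = 1.52e-07) in TH and 0.48 ± 0.08 (adjusted p = 5.04e-07) in B6. Adipor1, the more abundant of the pair in muscle, rose by 0.37 ± 0.09 (adjusted p = 0.000282) in B6, and the TH value was 0.16 ± 0.09 (adjusted p = 0.151). The high-fat diet at 20 weeks raised Adipor1 in TH by 0.27 ± 0.09 (adjusted p = 0.00534), against -0.11 ± 0.09 (adjusted p = 0.511) in B6, and the strain by diet test was called, at 0.38 ± 0.12 (adjusted p = 0.00647). TH males on the high-fat diet had 363, 407 and 477 CPM of Adipor1 and chow-fed TH males 283, 335 and 416 CPM, with overlap. For that diet comparison in TH soleus 1 of 3 receptors was called where 67.7% of all genes were, and for strain by diet 2 of 3 where 63.4% were. With so many genes called in this tissue, these counts say nothing particular of the receptors.

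Lepr was sparse in soleus, with a median of 10 reads per library. At that depth it was higher in TH than in B6 on chow at 20 weeks, by 1.34 ± 0.41 (adjusted p = 0.00656), and the strain by diet test gave -1.59 ± 0.59 (adjusted p = 0.016). Chow-fed females at 20 weeks ran at 0.914, 2.37 and 3.53 CPM in TH and 0.379, 0.514 and 0.894 CPM in B6, without overlap. The values in males overlapped, at 0.267, 0.918 and 1.73 CPM in TH and 0.203, 0.605 and 1.06 CPM in B6. Lepr was lower at 20 than at 5 weeks in chow-fed B6 mice, with a log2 change of -1.13 ± 0.42 (adjusted p = 0.0251). The summed mature adipocyte markers were also higher in soleus of chow-fed TH females at 20 weeks, at 1443, 1565 and 1828 FPKM. B6 females had 995, 1131 and 1194 FPKM. Over all libraries that sum had a median of 1207 FPKM in soleus and 1214 in liver, against 4472 in fat. Median Adipoq was 4.96 FPKM in soleus and 730 in fat, so in soleus the sum does not measure fat cells alone. Its part in the result was not tested. In all 9 of 42 receptor tests were called in soleus. The remaining counts were 1 of 3 for strain on chow (48.8% of all genes) and 1 of 3 on the high-fat diet (51.4%) at 20 weeks, and 0 on chow (16.6%) and on the high-fat diet (19.4%) at 5 weeks. Age gave 3 of 3 in B6 (41.2%) and 1 of 3 in TH (38.4%).

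In pancreas 3 of 42 receptor tests were called, on shallow counts, with a median of 229 reads of Adipor1 and 8 of Lepr per library. Chow-fed TH males at 20 weeks, a group of 10, had 39.9, 44.7 and 52.5 CPM of Adipor1 as lowest, median and highest value, and the 6 B6 males had 30.8, 35.1 and 38.6 CPM, without overlap. The log2 difference between the strains over both sexes was 0.28 ± 0.05 (adjusted p = 2.06e-06). Adipor1 rose with age in chow-fed TH mice by 0.40 ± 0.05 (adjusted p = 3.73e-10), from 29.3, 34.7 and 36.2 CPM in TH males at 5 weeks, and the B6 value was 0.11 ± 0.05 (adjusted p = 0.191). Lepr was lower in TH on chow at 20 weeks, with a log2 difference of -0.72 ± 0.21 (adjusted p = 0.00584), with overlap in both sexes. These are 2 of 3 receptors for strain on chow at 20 weeks (27.1% of all genes) and 1 of 3 for age in TH (27.5%). No receptor was called for the diet at 20 weeks by edgeR in this tissue (1.58% and 5.74% of all genes in B6 and TH), and 1 in B6 and 2 in TH had an unadjusted p under 0.05.

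Across the tissues the adiponectin receptors divided in a fixed way. Per transcript length, Adipor2 was above Adipor1 in all 96 fat and all 96 liver libraries, and below it in all 97 soleus and all 110 pancreas libraries. The median log2 ratio of Adipor2 to Adipor1 was 1.94 in fat, 2.29 in liver, -0.96 in pancreas and -1.09 in soleus. Adipor1 had its highest median in soleus, at 48.5 FPKM, against 16.0 in fat, 15.7 in liver and 18.9 in pancreas. Adipor2 had its highest median in liver, at 79.3 FPKM, against 64.01 in fat, 22.7 in soleus and 9.62 in pancreas. Lepr medians were 0.649 FPKM in liver, 0.575 in fat, 0.445 in pancreas and 0.0998 in soleus, and the ranges of the first 3 overlapped widely. The adipokines themselves were near 0 in liver, where Lep had no read in 66 of 96 libraries. The medians of Adipoq were 4.96 FPKM in soleus and 5.25 in pancreas, and those of Cfd 33.5 and 15.5. FPKM values of different tissues were not scaled to each other beyond library size.

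**Figure D5:**
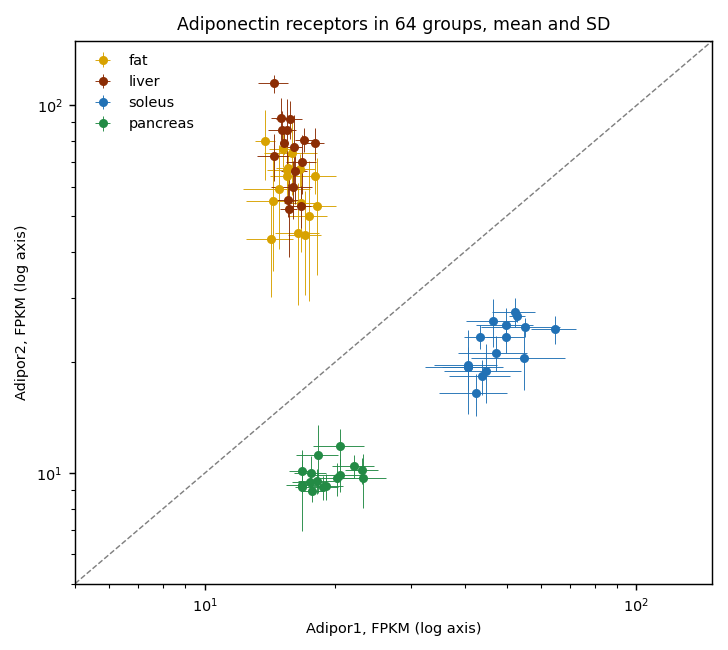
Adipor1 against Adipor2 in FPKM as the mean and SD of each of the 64 groups, coloured by tissue. Fat and liver groups lie on the Adipor2 side and soleus and pancreas groups on the Adipor1 side of the line of equal levels.

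Among 15 genes of leptin signalling below the receptor, 4 were called higher and 0 lower in TH fat on chow at 20 weeks (median log2 difference -0.03, against -0.04 over all genes, of which 12.3% were called higher and 13.4% lower). Ptpn1, the phosphatase that switches off the kinase bound to Lepr, differed by 0.40 ± 0.09 (adjusted p = 0.000192), and Ptpn11, a phosphatase that carries the signal to the MAP kinase pathway, by 0.39 ± 0.12 (adjusted p = 0.00973). With the high-fat diet 3 were higher and 1 lower (median log2 difference 0.10, against 0.01 over all genes, of which 11.8% were called higher and 14.3% lower). In liver on chow at 20 weeks 6 of 15 were higher and 2 lower in TH (median log2 difference 0.10, against 0.00 over all genes, of which 21.2% were called higher and 21% lower). The largest of these was Irs2, an insulin receptor substrate that leptin signalling also uses, at -0.93 ± 0.23 (adjusted p = 0.000525). The diet at 20 weeks gave 2 higher and 1 lower in B6 liver (median log2 difference 0.03, against 0.01 over all genes, of which 11.8% were called higher and 11.6% lower). In TH liver it gave 1 higher and 1 lower (median log2 difference 0.00, against 0.01 over all genes, of which 13.6% were called higher and 12.6% lower).

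Of 20 genes of adiponectin assembly and signalling in fat, 3 were called higher and 2 lower in TH on chow at 20 weeks (median log2 difference -0.01, against -0.04 over all genes, of which 12.3% were called higher and 13.4% lower). Ppargc1a, a coactivator of mitochondrial genes downstream of adiponectin, differed by -1.13 ± 0.21 (adjusted p = 1.93e-05), and Paqr4, a relative of the adiponectin receptors, by 0.98 ± 0.15 (adjusted p = 1.54e-07). Camkk2, a kinase upstream of AMP-activated kinase, differed by 0.39 ± 0.11 (adjusted p = 0.00257), and Prkaa1, a catalytic subunit of that kinase, by -0.38 ± 0.13 (adjusted p = 0.0205). Under high-fat feeding 3 were higher and 3 lower (median log2 difference 0.02, against 0.01 over all genes, of which 11.8% were called higher and 14.3% lower), with Ppargc1a at -1.02 ± 0.21 (adjusted p = 0.000119). For the diet at 20 weeks in TH soleus 5 were higher and 11 lower of 20 (median log2 difference -0.45, against -0.06 over all genes, of which 32.7% were called higher and 35% lower).

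The alternative complement pathway, in which Cfd acts, had 3 genes called higher and 2 lower of 10 in TH fat on chow at 20 weeks (median log2 difference 0.13, against -0.04 over all genes, of which 12.3% were called higher and 13.4% lower). C5ar2, a receptor for the fragment C5a and its product, differed by -2.24 ± 0.35 (adjusted p = 2.52e-07), and C3ar1, the receptor for C3a, by 1.25 ± 0.28 (adjusted p = 0.000258). Masp1, whose products include an activator of the factor D precursor, differed by -1.33 ± 0.29 (adjusted p = 0.000202), and Cfp, properdin, by 0.74 ± 0.25 (adjusted p = 0.018). In males on the high-fat diet, where Cfd was lowest, C3ar1 was the one gene of the list called, at 2.19 ± 0.40 (adjusted p = 1.14e-05) (median log2 difference -0.04, against 0.02 over all genes, of which 15.5% were called higher and 15.6% lower). C3ar1 is also expressed by macrophages, whose markers were higher in these males as given above. Of 4 genes in the list of the resistin family and binding partners, 2 were higher on chow. Cap1, a protein that binds resistin, differed by 0.54 ± 0.08 (adjusted p = 2.08e-07) on chow and by 0.89 ± 0.12 (adjusted p = 5.94e-09) in males on the high-fat diet. Retnla, a resistin-like gene of alternatively activated macrophages, differed by 0.85 ± 0.28 (adjusted p = 0.0151) on chow and by -0.97 ± 0.39 (adjusted p = 0.0485) in males on the high-fat diet.

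Of 23 other adipokines in fat, 8 were called higher and 5 lower in TH on chow at 20 weeks (median log2 difference 0.03, against -0.04 over all genes, of which 12.3% were called higher and 13.4% lower). Sfrp5, a secreted inhibitor of Wnt signalling, differed by 3.77 ± 0.37 (adjusted p = 7.71e-14), and Ccl2, the chemokine that draws monocytes into fat, by 2.30 ± 0.37 (adjusted p = 5.47e-07). In the same comparison 10 of 12 macrophage markers were called higher, and they summed to medians of 261 FPKM in TH females and 643 in TH males, against 109 and 208 in B6. Their part in these values was not tested. On the high-fat diet 4 were higher and 8 lower (median log2 difference -0.20, against 0.01 over all genes, of which 11.8% were called higher and 14.3% lower). There Rbp4, the retinol carrier, differed by -1.55 ± 0.22 (adjusted p = 4.14e-08) and Nrg4, a growth factor of brown and white fat cells, by -1.48 ± 0.19 (adjusted p = 1.37e-09). In males on that diet 5 were higher and 9 lower (median log2 difference -0.39, against 0.02 over all genes, of which 15.5% were called higher and 15.6% lower). Lcn2, lipocalin 2, differed by 3.77 ± 1.17 (adjusted p = 0.00972) and Agt, angiotensinogen, by -2.07 ± 0.31 (adjusted p = 1.42e-07). Epididymis markers were called higher in these TH males, as given above, and their part in the Lcn2 value was not tested. Rbp4 and Agt are also major products of hepatocytes, and 7 of 8 hepatocyte markers were called lower in the same male comparison. The hepatocyte markers summed to 4.18, 59.03 and 215.4 FPKM in B6 males and 1.88, 17.5 and 30.7 FPKM in TH males, and their part in these values was not tested.

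Among 16 adipokine transcription factors, 1 was called higher and 7 lower in TH than in B6 males on the high-fat diet (median log2 difference -0.62, against 0.02 over all genes, of which 15.5% were called higher and 15.6% lower). Atf3, a stress-induced repressor, was the one called higher, at 2.94 ± 0.40 (adjusted p = 1.91e-08). Klf15 differed by -0.97 ± 0.25 (adjusted p = 0.00223), Cebpa, a driver of fat cell genes including Lep and Adipoq, by -0.93 ± 0.27 (adjusted p = 0.00559), and Srebf1, a driver of lipid synthesis, by -0.78 ± 0.22 (adjusted p = 0.0046). Of the mature adipocyte markers 9 of 16 were called lower in the same comparison, and their part in these values was not tested. Over both sexes on the high-fat diet 1 factor was called higher, Atf3 at 1.67 ± 0.28 (adjusted p = 1.23e-06), and 1 lower, Srebf1 at -0.69 ± 0.16 (adjusted p = 0.000377) (median log2 difference -0.19, against 0.01 over all genes, of which 11.8% were called higher and 14.3% lower).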

How the data were processed

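Gene expression was measured by stranded poly(A) RNA sequencing of gonadal fat, liver, soleus and pancreas, from RNA with an integrity number above 8, per the labels' protocols. Per the submitters' processing notes the authors used Trimmomatic 0.39, HISAT2 2.2.1 and SAMtools with build GRCm39. How reads were counted, with which annotation and whether by strand, is not given in the sources used here. The authors deposited a table of raw read counts per Ensembl gene and a table of FPKM values, which scale counts by gene length and library size. Group, diet, sex, age and animal came from the sample labels, which name no batch or date, and p-values measure the spread between these mice. Symbols were matched for 52073 of 56980 identifiers.

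From the deposited counts, 1 model per tissue was fitted with edgeR 4.0.16 (R 4.3.3) after filterByExpr (at least 10 counts, total at least 15), with TMM factors, 1 mean for each of the 16 groups, and the quasi-likelihood F test. P-values were adjusted by Benjamini and Hochberg over all genes tested, with a threshold of 0.05. All 7 members passed the filter in fat and all 3 receptors in every tissue. The SE of a log2 fold change is its size over the square root of F. CPM values are TMM-normalised counts scaled to library size, and FPKM was used only to compare genes or tissues. Ratios and relations were tested by permutation in Python 3.11.15 with SciPy 1.17.1. In a simulation of the TH diet comparison in fat at 20 weeks with 19444 genes, 62 of 99 genes changed by 1 on the log2 scale and 31 of 99 changed by 0.5 were found, with 1 false call.

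The members, the gene lists, the tests and the alternatives were chosen with earlier results of these data known. From each gene list, up to 4 called genes with the largest absolute log2 fold change in a comparison are named; for each adipokine, the 3 genes most alike over the 16 fat group means. A result of 1 list gene is not reported here. Alternatives tried were DESeq2 1.42.0, RLE factors, the unfiltered table, scores for neighbouring tissues in fat, leaving out libraries that stood apart, blocking on the replicate number, and fitting the compared groups alone. Setting adipokines against mature adipocyte markers was added after the data had been seen, as were fits without single mice far from their group and age effects by sex.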

Additional observations from a re-analysis of the deposited data

Results flagged for a closer look

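Single mice that lay far from the other mice of their group were found by Dixon's test on CPM, in 25 combinations of gene and group. Chance alone marks about 1 in 20 where values are normally distributed, and that was not tested for these CPM values. The 25 were 11 of 112 combinations in fat, 7 of 48 in liver, 6 of 48 in soleus and 1 of 48 in pancreas. Each value below is the highest or the lowest of its group. For Adipoq in fat these were 1201 CPM in TH females on the high-fat diet at 5 weeks (lowest), 3272 CPM in B6 males on the high-fat diet at 20 weeks (highest) and 4238 CPM in TH males on chow at 20 weeks (highest). For Adipor1 in fat this was 171 CPM in TH females on chow at 20 weeks (highest). For Adipor2 in fat these were 1087 CPM in TH females on chow at 5 weeks (highest) and 473 CPM in TH females on the high-fat diet at 5 weeks (lowest). For Cfd in fat these were 8183 CPM in B6 males on the high-fat diet at 20 weeks (highest) and 477 CPM in TH males on the high-fat diet at 20 weeks (highest). For Lep in fat this was 1617 CPM in TH males on chow at 20 weeks (lowest). For Retn in fat these were 3048 CPM in B6 males on the high-fat diet at 20 weeks (highest) and 367 CPM in TH males on the high-fat diet at 20 weeks (highest). For Adipor1 in liver this was 91.5 CPM in B6 males on chow at 5 weeks (lowest). For Adipor2 in liver these were 479 CPM in B6 males on chow at 5 weeks (lowest) and 356 CPM in B6 males on the high-fat diet at 5 weeks (lowest). For Lepr in liver these were 75.7 CPM in TH females on the high-fat diet at 20 weeks (highest), 6.02 CPM in B6 males on chow at 20 weeks (highest), 12.1 CPM in B6 males on the high-fat diet at 20 weeks (highest) and 50.8 CPM in B6 males on the high-fat diet at 5 weeks (highest). For Lepr in pancreas this was 3.48 CPM in TH males on chow at 5 weeks (highest). For Adipor1 in soleus this was 337 CPM in TH females on chow at 20 weeks (highest). For Adipor2 in soleus this was 127 CPM in B6 females on the high-fat diet at 5 weeks (lowest). For Lepr in soleus these were 3.36 CPM in B6 females on chow at 5 weeks (highest), 6.31 CPM in TH females on the high-fat diet at 5 weeks (highest), 2.61 CPM in B6 males on chow at 5 weeks (highest) and 1.58 CPM in B6 males on the high-fat diet at 20 weeks (highest). In fat, the B6 male on the high-fat diet with the high Cfd value was also the high one for Retn and Adipoq, and the TH male with the high Cfd value was also the high one for Retn of its group. The report gives the male strain differences of Cfd and Retn on the high-fat diet with and without each of these 2 mice, the B6 mouse together with the other libraries that stood apart.

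In soleus the response to 16 weeks of the high-fat diet differed between the strains for both Lepr and Adipor1, by the interaction term in edgeR. The TH response minus the B6 response on the log2 scale was -1.59 (adjusted p = 0.016) for Lepr and 0.38 (adjusted p = 0.00647) for Adipor1. For the same term 63.4% of all soleus genes were called.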

How the results depend on the processing

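Of the calls reported, 30 of 41 in fat, 18 of 20 in liver, 9 of 9 in soleus and 3 of 3 in pancreas held under every other setting tried, leaving aside the adipocyte scale and the fits without single mice, which were added later and cover fewer tests. The count of fat calls for diet went from 3 to 1 with a fit on only the groups compared. For diet within the sexes it went from 2 to 1 with no filter on low counts and 0 with the groups alone. For differences between effects it went from 0 to 3 without the libraries that stood apart, 1 with DESeq2 and 3 with the groups alone. The cause was not tested. Against mature adipocyte markers, 4 values changed sign, 2 of them with a call on that scale: Adipoq between the strains in males on the high-fat diet at 20 weeks, from -0.22 to 0.69 (adjusted p = 0.0231), and Retn with the diet in B6 females, from 0.02 to -0.28 (adjusted p = 0.0139), by exact permutation tests. Neither was called without that scale. The other 2, not called on either scale, were Adipoq with the diet in B6 females, from 0.26 to -0.03, and in TH males, from -0.58 to 0.28. The Lep to Adipoq ratio for the diet in B6 males at 5 weeks, not called, went from -0.40 to 0.0191 without the libraries that stood apart. Without the libraries that stood apart, 8 more tests in fat were called and no call was lost. They were Lep between the strains in males on the high-fat diet, Adipoq between the strains in chow-fed females at 20 weeks, Adipor2 between the strains on chow at 5 weeks, Retn and Cfd with age in chow-fed TH mice, and Cfd for strain by sex, strain by age and diet by sex in TH. No liver library stood apart, so that alternative was not run there. Leaving out each of the 5 soleus mice of TH males on chow at 5 weeks in turn gave 9 called receptor tests, against 9 with all mice.

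Replicate numbers are shared between groups, but nothing says that they pair mice: over pairs of fat libraries with the same number the mean correlation of their deviations was -0.000203 and the lowest -0.76. With the replicate block in the model, the counts of called members in fat were 15 for strain, 2 for diet, 8 for age, 4 for sex, 0 for differences between effects, 9 for strain within the sexes and 2 for diet within the sexes, against 16, 3, 8, 4, 0, 8 and 2 without it. The blocked counts for receptors were 20 in liver, 9 in soleus and 3 in pancreas. Depth limits Lepr most, with a median of 10 reads per library in soleus and 8 in pancreas.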
